A study of Mus musculus with 3 samples.

Results

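Molecular chaperones and protein folding enzymes were followed in 3 RNA-sequencing libraries of normal mouse liver. The members were all transcript-structure events listed under the identifier of a protein-coding gene whose symbol begins with Hspa, Hspb, Hspd, Hspe, Hsph, Hsp90, Dnaja, Dnajb, Dnajc or Pdia, or with Cct and a digit. Of 87 annotated genes with such a symbol, 66 had at least 1 event, with 328, 330 and 327 events in replicates 1, 2 and 3 out of 71716, 74243 and 74236 in all. The libraries form 1 group, labelled as liver of healthy WT male mice of the strain C57BL/6, with no treatment and no age given, and the series compares such liver with liver cancer tissue, which was not analysed here. With a single group no contrast between conditions could be made, and no test was run. Nothing in the labels ties the 3 replicates to separate animals, and the spread between them may be technical. Values are gene-level FPKM (fragments scaled by transcript length and by library size), given for replicates 1, 2 and 3 in that order, and positions are on GRCm38.

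Chaperones bind unfolded or partly folded proteins and keep them from clumping until they reach their folded form. The HSP70 proteins (Hspa and Hsph genes) bind short exposed stretches in cycles driven by ATP. J-domain proteins (Dnaj genes) deliver substrates to them, and HSP90 takes over later steps for kinases and steroid receptors. HSP60 with HSP10 (Hspd1 and Hspe1) and the ring complex TRiC (Cct genes) enclose a protein in a chamber, small heat shock proteins (Hspb genes) hold unfolded proteins without ATP, and protein disulfide isomerases (Pdia genes) form and rearrange disulfide bonds in the endoplasmic reticulum (ER). Hepatocytes make most plasma proteins and fold them in the ER, so the ER set is well known in liver.

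The liver label was met by the hepatocyte markers: all 10 had a value, their summed FPKM being 51541, 55201 and 48029. None of 6 male germ cell markers was listed. Of these, Tnp1 and Zpbp have 1 annotated transcript, and such genes can be missing whatever their level. The label male was not met by the markers. Xist, which is expressed in female cells, was at 39.6, 34.2 and 38.2 FPKM, and of the Y chromosome genes Uty, Ddx3y, Eif2s3y and Kdm5d none was listed in any library. No result below rests on the sex of the animals. The markers of Kupffer cells, the macrophages of the liver, summed to 97.6, 152 and 133 FPKM, lowest in replicate 1, and 1 of 8 was above its own mean there. Bulk libraries cannot tell fewer cells of a type from less RNA per cell. Sequencing depth is unknown here, since the files give FPKM without counts, and intervals for counting error cannot be formed.

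Of the 87 genes, 75.9% were listed under their own identifier in some library, beside 52.5% of all protein-coding genes. Of the chaperone genes, 63 of 77 with several annotated transcripts were listed, against 3 of 10 with 1 annotated transcript. A gene-level value was obtained for 65 members, and 60 of them had one in every library. Dnajb13 was the member without a value, with 1 internal event of 0.527 FPKM in replicate 3. Means reached 1 FPKM or more in 58 members, 89.2% of those with a value, beside 76.9% of protein-coding genes with a value. By level, 5 members averaged 100 FPKM or more, 29 lay from 10 to 100, 24 from 1 to 10 and 7 below 1. Those 7 were Dnaja4, Dnajb5, Hspbap1, Dnajc27, Hspa2, Hspb7 and Hspa12b. The median of mean log2(FPKM + 1) was 3.64 for the members and 2.23 for all protein-coding genes with a value. Of the 65 members, 33 ranked in the upper 25% of 12064 protein-coding genes, 14 in the upper 10% and none in the upper 1%.

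Together the members held 0.513, 0.534 and 0.593% of the summed FPKM of all genes, a mean of 0.547 ± 0.0414% (SD, n = 3). The 5 members at 100 FPKM or more, Hsp90ab1, Hspa5, Hspd1, Pdia3 and Hspa9, made up 42.0, 44.3 and 43.3% of the members' sum. These 5 work in different places: Hsp90ab1 in the cytosol, Hspa5 and Pdia3 in the ER, Hspd1 and Hspa9 in mitochondria. Summed by family over the 3 libraries, the Hspa and Hsph genes reached 317 ± 33.5 FPKM, Pdia 277 ± 40.7, Hspd and Hspe 246 ± 9.06, Hsp90 236 ± 7.18, Dnajc 214 ± 4.20, Cct 179 ± 9.31, Dnajb 107 ± 8.98, Dnaja 106 ± 28.8 and Hspb 100 ± 12.4 (SD, n = 3 each).

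**Figure D1:**
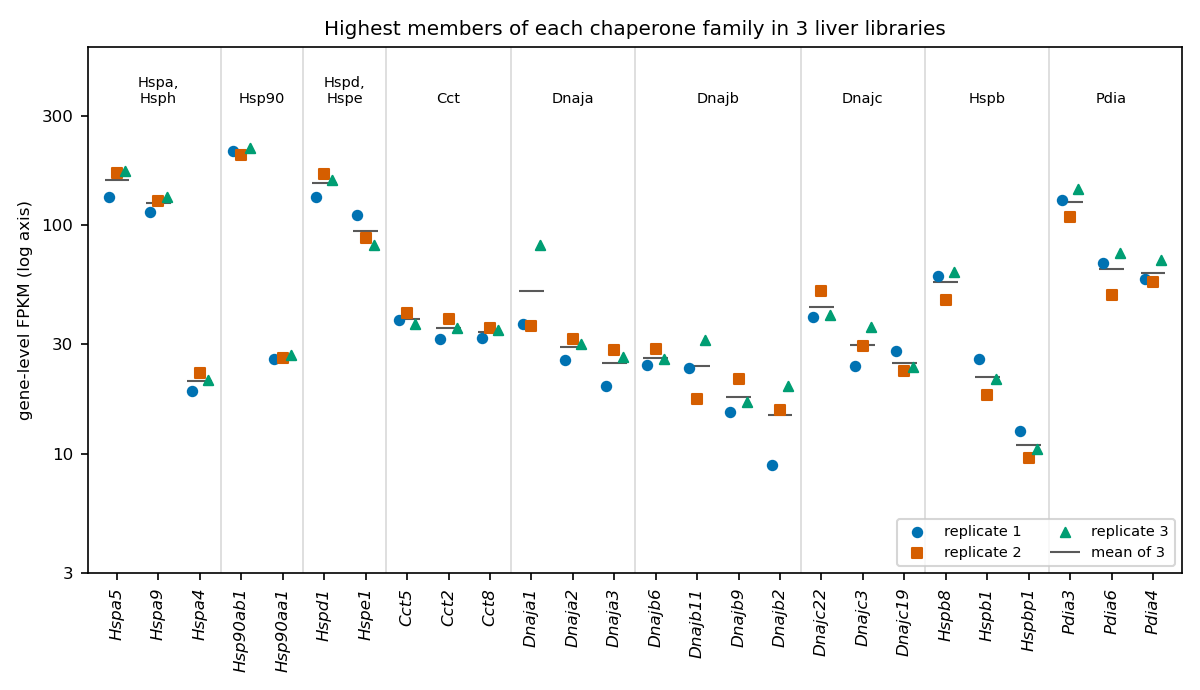
Gene-level FPKM (log axis) of the 3 highest members of each chaperone family, or all where there are fewer, plus Dnajb2, in replicates 1 (circles), 2 (squares) and 3 (triangles), with the mean of the 3 as a line. Hsp90ab1 sits above 200 FPKM in each library, and Dnaja1 and Dnajb2 have the widest gaps between libraries.

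Among the HSP70 genes, Hspa5, which encodes the ER chaperone BiP, had 132, 169 and 171 FPKM. Hspa9, the mitochondrial HSP70, had 114, 127 and 132 FPKM. At gene level replicate 1 was the lowest for both. The main first exon and the last exons of Hspa5 were lowest in replicate 3 (values below). Hspa4, a cytosolic nucleotide exchange factor for HSP70, stood at 18.7, 22.5 and 21.1 FPKM. Its close relative Hsph1 was lower in each library, at 4.82, 7.86 and 4.64 FPKM, and Hspa4 exceeded it by 1.71 ± 0.28 on the log2(FPKM + 1) scale (SD, n = 3). Hspa13, an ER protein, had 3.84, 4.87 and 4.76 FPKM, and Hspa14, a partner of the ribosome, had 4.46, 2.32 and 2.39 FPKM. Hspa2, an HSP70 needed for sperm formation, was listed in replicate 3 alone with 0.438 FPKM.

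Hspa8 encodes the constitutive cytosolic HSP70, and its events stand in the tables under the snoRNA gene Snord14e, which lies within it, so it is no member by identifier. Placed by position, it had 370, 288 and 359 FPKM, more than any member and rank 120 of 12064 protein-coding genes. Hsp90b1, the ER HSP90 known as GRP94, was listed under the miRNA gene Gm25745 and had 198, 215 and 217 FPKM by position. Dnajc14 and Dnajc25 stood under the neighbouring genes Sarnp and Gng10, with means of 8.96 ± 1.19 and 6.27 ± 0.36 FPKM (SD, n = 3). With these 4 genes the share of summed FPKM was 0.689, 0.691 and 0.778%. The other 17 of the 21 genes that are not members had no value by position either. They include Hspa1a and Hspa1b, the strongly heat-inducible HSP70 genes, each with 1 annotated transcript. A gene with a single transcript can be missing from such tables whatever its level, so no level can be read for this pair.

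In the HSP90 family the constitutive cytosolic form Hsp90ab1 had 211, 203 and 217 FPKM. The stress-inducible form Hsp90aa1 had 25.9, 26.2 and 26.9 FPKM. Hsp90ab1 was higher by 2.95 ± 0.04 on the log2 scale, between 7.74 and 8.15 times in the single libraries. The ER form Hsp90b1 and the cytosolic Hsp90ab1 could not be ordered: Hsp90b1 was higher in 2 of 3 libraries and their mean difference was smaller than its SD of 0.086 on the log2 scale.

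Hspd1 and Hspe1, which encode the mitochondrial HSP60 ring and its HSP10 lid, lie head to head on chromosome 1. Hspd1 had 132, 168 and 156 FPKM and Hspe1 had 111, 88.0 and 82.0 FPKM. Hspd1 was higher in each library, by 1.19 to 1.91 times. Replicate 1 was the lowest for Hspd1 and the highest for Hspe1. Almost all Hspd1 expression was listed from the first exon at chr1:55087779-55088024 on the minus strand, with 124, 155 and 148 FPKM. A second first exon, at chr1:55087989-55088243, reaches past the start of Hspe1 and had 7.55, 12.2 and 8.20 FPKM. The Hspe1 first exon at chr1:55088132-55088412 on the plus strand starts 107 bases from the main Hspd1 start. That interval holds 2 overlapping heat shock elements, the pattern read by heat shock factor 1, which are shown in capitals on the plus strand because both genes share them (chr1:55088054-55088081, RefSeq promoter table, GRCm38.p6):

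Hspd1 and Hspe1: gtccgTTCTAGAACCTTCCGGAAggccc

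The 2 elements cover 18 bases, 35 bases from the Hspd1 start and 56 bases from the Hspe1 start. Each follows the pattern of 3 units, GAANNTTCNNGAA or TTCNNGAANNTTC, where N is any base. This pattern, searched on both strands and chosen after the promoters had been looked at, was found in 0.603% of 32851 RefSeq mouse promoters (250 bases before to 50 after each start). Of the 66 members, 54 matched a promoter by symbol, and 4 of them held it: Hspd1, Hspe1, Hsph1 and Dnajb6. Counted by promoter, since a gene can have several, that is 8.57% of the 70 promoters of members. The shorter pattern of 2 units, GAANNTTC, which lies within the longer ones, was found in 7.86% of all promoters and in 18.6% of the members' promoters, from 11 of the 54 genes. Besides these 4 genes they were Dnaja1, Dnaja4, Hspb1, Hspb6, Hspb8, Cct2 and Dnajc27. A match is a description of the sequence and says nothing of what was bound in these livers.

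**Figure D2:**
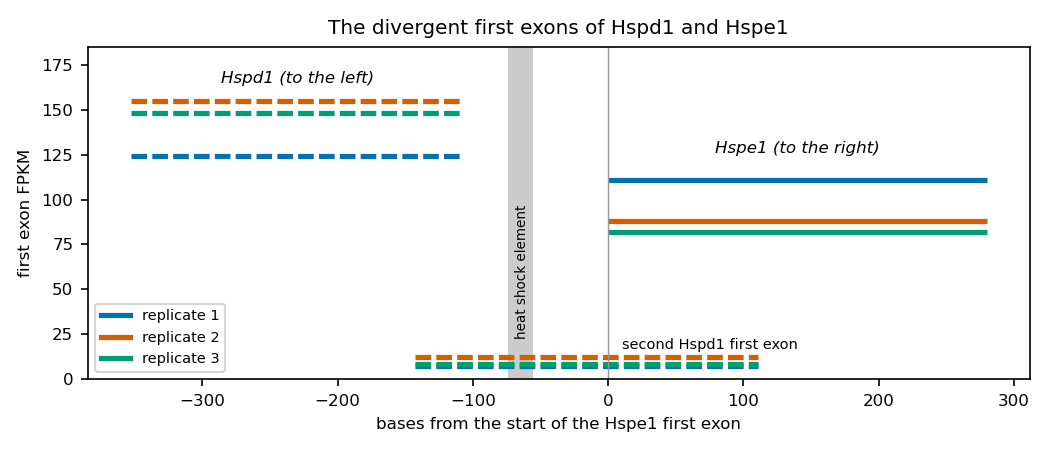
FPKM of the first exons of Hspd1 (dashed, transcribed to the left) and Hspe1 (solid, transcribed to the right) against distance in bases from the Hspe1 start, with colours for replicates and the span of the heat shock elements in grey. The main starts lie 107 bases apart, Hspd1 is above Hspe1 in each replicate, and the second Hspd1 first exon stays at or below 12.2 FPKM.

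TRiC folds actin, tubulin and other cytosolic proteins in a double ring of 8 kinds of subunit. The 6 subunits among the members had means between 21.9 and 38.7 FPKM, so the highest was 1.76 times the lowest. Cct5 had 38.2, 41.0 and 36.9 FPKM, Cct2 31.6, 38.6 and 35.6 FPKM, and Cct8 32.0, 35.4 and 34.6 FPKM. Cct4, Cct3 and Cct7 averaged 25.2 ± 3.20, 23.8 ± 5.76 and 21.9 ± 1.30 FPKM (SD, n = 3). Cct5 was above Cct2 and Cct4 above Cct7 in each library, while the range of Cct3, 22.2, 19.0 and 30.2 FPKM, overlapped those of Cct4 and Cct7. Tcp1, the first subunit, whose symbol falls outside the rule, had 41.1, 44.0 and 39.7 FPKM. Cct6a is annotated as a processed transcript in the release used, and so is not a member. Its 69.4, 77.7 and 94.8 FPKM were above those of Cct2 in each library, by 1.16 ± 0.20 on the log2 scale. Prefoldin hands newly made chains to TRiC, and its subunits spread more widely. The highest, Pfdn5, had 55.4, 38.4 and 39.2 FPKM, Pfdn2 had 34.0, 21.6 and 16.1 FPKM, and Pfdn4 was the lowest at 3.78, 5.04 and 2.58 FPKM.

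The cytosolic J-domain gene Dnaja1 had 36.8, 36.2 and 81.3 FPKM, with replicate 3 far above the others. Dnaja2, which acts beside it on HSP70, had 25.8, 31.6 and 30.1 FPKM, and the mitochondrial Dnaja3 had 19.8, 28.3 and 26.4 FPKM. Dnaja4 was far lower, at 0.95 ± 0.18 FPKM (SD, n = 3). The events of Dnaja1 gave different levels along the gene. The main first exon at chr4:40722480-40722633 had 36.6, 35.3 and 57.3 FPKM, and another at chr4:40722917-40723136 was listed in replicate 3 alone with 22.1 FPKM. An early internal exon at chr4:40723973-40724150 was included with 36.6, 36.0 and 81.0 FPKM. On the last exon the order was turned round, with 36.6, 35.3 and 14.0 FPKM. An intron of 1746 bases in the middle of the gene was listed as retained in replicate 3 alone, with 14.0 FPKM. Spliced out, it had 36.7, 36.0 and 16.3 FPKM in a first event and 50.7 FPKM in a further one, listed in replicate 3 alone. In replicate 3 the start, the middle and the end of Dnaja1 thus did not give 1 level, and whether the gene itself was higher there cannot be told from these values.

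In the Dnajb family Dnajb6, which keeps polyglutamine proteins soluble, had 24.4, 28.6 and 25.8 FPKM. Dnajb11 and Dnajb9, both ER partners of Hspa5, had 23.8, 17.2 and 31.3 FPKM and 15.1, 21.1 and 16.8 FPKM. Their order was opposite in replicate 2 to that in replicates 1 and 3. Dnajb2 had 8.89, 15.5 and 19.7 FPKM, and its last exon had 0.647, 8.73 and 8.95 FPKM, with replicate 1 the lowest on both. Dnajb12, an ER membrane protein, averaged 14.8 ± 0.74 FPKM. Dnajb1, the heat-inducible partner of HSP70, was steady at 5.13, 6.42 and 5.31 FPKM. Dnajb14, a relative of Dnajb12, averaged 1.55 ± 0.27 FPKM, and Dnajb5 0.70 ± 0.083 FPKM. Dnajb4, the close relative of Dnajb1, had 5.12 FPKM in replicate 1, was not listed in replicate 2 and had 0.0027 FPKM in replicate 3.

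Means of the 22 Dnajc members ranged from 0.24 FPKM for Dnajc27 to 43.6 ± 6.64 FPKM for Dnajc22, a membrane protein with a J domain. Dnajc27 was listed in replicate 2 alone, with 0.721 FPKM. Dnajc22 had 39.4, 51.2 and 40.2 FPKM, while its last exon was nearly level at 31.5, 32.6 and 32.0 FPKM. Its main first exon at chr15:99099412-99099600 had 31.5, 21.3 and 36.7 FPKM. Another at chr15:99098849-99099313 had 7.85 and 29.9 FPKM in replicates 1 and 2 and was not listed in replicate 3, where a further one at chr15:99096749-99097562 was listed alone with 3.47 FPKM. Dnajc3, an ER inhibitor of the kinase PERK and a partner of Hspa5, had 24.3, 29.4 and 35.6 FPKM, the same on its first and its last exon. Dnajc19 and Dnajc15, which serve protein import into mitochondria, had 28.1, 23.0 and 23.8 FPKM and 24.0, 22.7 and 22.1 FPKM. The synaptic vesicle protein gene Dnajc5, which is also expressed outside neurons, averaged 11.5 ± 1.10 FPKM.

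The other Dnajc members, apart from Dnajc4 and Dnajc8 below, lay under 11 FPKM. Dnajc7, a cochaperone of HSP70 and HSP90, had 10.8, 8.16 and 9.72 FPKM, and Dnajc11, a protein of the mitochondrial membranes, had 10.3, 9.43 and 8.06 FPKM. Dnajc21, which serves ribosome assembly, had 6.40, 8.34 and 6.13 FPKM. Dnajc10, the ER reductase ERdj5, was among the steadiest members, with 5.06 ± 0.18 FPKM, as was Dnajc2, a J protein of the ribosome, with 3.68 ± 0.10 FPKM (SD, n = 3). Dnajc12, which assists phenylalanine hydroxylase of hepatocytes, had 3.34, 2.91 and 4.49 FPKM. The histone chaperone Dnajc9 averaged 3.12 ± 0.20 FPKM, and the mitochondrial Dnajc30 4.22 ± 0.87 FPKM. Dnajc24, needed for the diphthamide of elongation factor 2, had 2.15, 2.37 and 3.58 FPKM. Dnajc17, Dnajc16 and Dnajc18 averaged 2.14 ± 0.75, 1.69 ± 0.44 and 1.01 ± 0.14 FPKM.

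The endosomal gene Dnajc13 had 6.27, 2.38 and 3.10 FPKM, with replicate 1 the highest. Its full-length first exon at chr9:104262699-104262930 went the other way, with 0.21, 1.94 and 2.68 FPKM. A downstream first exon of 3059 bases at chr9:104164960-104168018, which starts where an annotated retained-intron transcript starts, had 5.68, 0.163 and 0.234 FPKM. Hspa4l, an HSP70 relative best known from testis, was low in replicate 1 on each of its main events, with 0.216, 1.91 and 1.53 FPKM for the gene.

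Among the small heat shock proteins, Hspb8, which works with the cochaperone Bag3 in selective autophagy, had 59.6, 46.7 and 62.3 FPKM. Hspb1 had 25.8, 18.0 and 21.2 FPKM, and was below Hspb8 in each library by 1.34 ± 0.17 on the log2 scale. Hspb6 averaged 5.76 ± 1.00 FPKM, and the heart protein Hspb7 was listed in replicate 2 alone with 0.375 FPKM. Each of Hspb1, Hspb6 and Hspb8 was lowest in replicate 2. That library was the lowest for 23 of the 58 members averaging 1 FPKM or more, and for 2843 of 9272 such protein-coding genes. Others carry such a symbol without being small heat shock proteins. Hspbp1, a nucleotide exchange factor of HSP70, had 12.6, 9.60 and 10.5 FPKM, Hspb11, a subunit of ciliary transport, averaged 5.43 ± 1.28 FPKM, and Hspbap1 averaged 0.341 ± 0.0465 FPKM.

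Pdia3, the disulfide isomerase that works with calnexin and calreticulin on glycoproteins, had 128, 108 and 143 FPKM. Pdia6 had 68.1, 49.5 and 75.5 FPKM, Pdia4 58.0, 56.3 and 70.0 FPKM, and Pdia5 26.3, 20.2 and 27.0 FPKM. For each of the 4 members replicate 2 was the lowest and replicate 3 the highest. Of the 58 members averaging 1 FPKM or more, 23 were lowest in replicate 2 and 21 highest in replicate 3. Of 9272 such protein-coding genes these were 2843 and 2946. Pdia3 exceeded Pdia4 by 1.03 ± 0.10 and Pdia6 by 0.98 ± 0.12 on the log2 scale, while Pdia4 and Pdia6 changed order between libraries. P4hb, which encodes the founding member of the disulfide isomerases and falls outside the rule by its symbol, was higher than any member, at 383, 347 and 394 FPKM.

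The spread between libraries was then compared over all members. The median SD of log2(FPKM + 1) was 0.193 for the 58 members with a mean of at least 1 FPKM, beside 0.217 for all genes at that level. The highest library was at least 2 times the lowest for 5 of the 58 members, or 8.62%, beside 18.7% of all such genes. Those 5 were Dnaja1, Dnajb2, Dnajc13, Hspa4l and Dnajb4, of which Dnajc13, Hspa4l and Dnajb4 averaged under 5 FPKM. Members and other genes were not matched for level in these comparisons. The median log2 levels given above were 3.64 for members and 2.23 for protein-coding genes. Of the 58, 16 were highest in replicate 1, 21 in replicate 2 and 21 in replicate 3, which is 27.6, 36.2 and 36.2%, against 35.4, 32.9 and 31.8% of all protein-coding genes at that level.

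**Figure D3:**
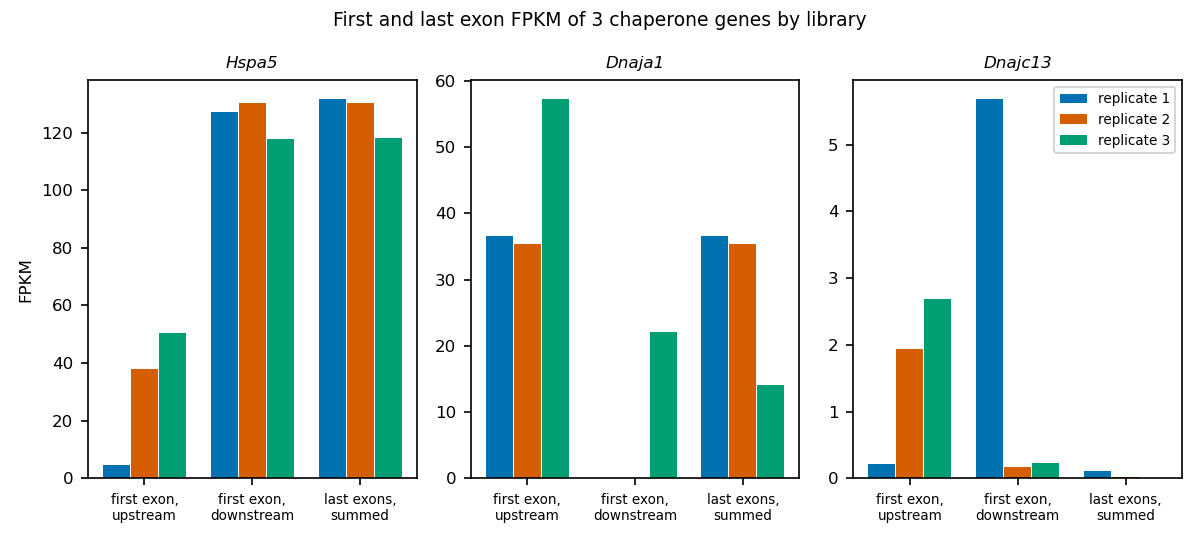
FPKM of the 2 leading first exons and of all last exons summed for Hspa5, Dnaja1 and Dnajc13, as bars from 0 for replicates 1, 2 and 3, each gene on its own axis. The upstream Hspa5 first exon is low in replicate 1, the Dnaja1 last exon is low in replicate 3 where its first exons are high, and the downstream Dnajc13 first exon is high in replicate 1.

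The members were also grouped by where they work. Most ER lumen chaperones were above their own mean in replicate 3. All 12 genes of that list (Hsp90b1 by position) had a value, and 10 of them were above it there, with 5 in each of replicates 1 and 2. Of 9151 protein-coding genes that averaged 1 FPKM or more and had a value in each library, 49.6, 52.3 and 51.6% were above their own mean in replicates 1, 2 and 3, and of the 57 members that met the same rule 38.6, 52.6 and 59.6%. The median deviation of the 12 ER lumen genes from their own means was -0.08, -0.06 and 0.17 on the log2(FPKM + 1) scale. Hspa5 counts among the 10 in replicate 3, although its main first exon and its last exons were lowest there (values below). Dnajb11 and Dnajc1, a membrane J protein of the ER, deviated most in replicate 3, Dnajc1 with 2.93, 2.88 and 5.49 FPKM. The Dnajb11 level was that of 1 internal event, while its listed last exon had 0.388, 0.729 and 0.761 FPKM. Dnajc10 and Dnajb9 were the exceptions, Dnajc10 with 5.24, 5.07 and 4.88 FPKM. Of the 10 hepatocyte markers 7 were above their own mean in replicate 3, as in replicate 2, while their sum was lowest there, and their part in the result was not tested. Of 15 other folding genes of the ER, 9 were above their mean in replicate 3, with a median deviation of 0.05. Their highest members after P4hb were Calr with 161, 200 and 168 FPKM and Ppib with 132, 115 and 131 FPKM. The unfolded protein response sensors and targets had a median deviation of -0.07 in replicate 3. Herpud1 had 103, 102 and 122 FPKM, Xbp1 62.7, 69.9 and 53.5 FPKM, and Atf4 58.3, 46.3 and 46.1 FPKM.

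For Hspa5 the difference between libraries depended on where the gene starts. Its main first exon at chr2:34772095-34772446 had 127, 130 and 118 FPKM and its last exons 132, 130 and 118 FPKM, which leaves the libraries close together. The upstream first exon at chr2:34771970-34772146, 125 bases ahead and spliced within the untranslated leader, had 4.54, 38.1 and 50.4 FPKM. It made up 3.43, 22.6 and 29.4% of the first exons of the gene. Both annotated transcripts encode the same 655 amino acids. The promoter holds an ER stress element, the pattern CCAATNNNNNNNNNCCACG read by ATF6 with NF-Y, 52 bases before the main start and 55 bases inside the upstream first exon. Searched on both strands, the pattern was found in 0.119% of all 32851 promoters and in 4.29% of the members' 70 promoters, those of 3 genes. These are shown in capitals with 5 bases on either side, beside both copies from Hsp90b1, because each belongs to a gene of the ER list (RefSeq, GRCm38.p6; chr2:34772020-34772048, chr12:17266486-17266514 and chr14:118937822-118937850 on the plus strand, chr10:86705633-86705661 and chr10:86705528-86705556 on the minus strand):

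Hspa5: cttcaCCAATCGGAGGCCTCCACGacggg
Pdia6: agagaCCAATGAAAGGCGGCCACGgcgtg
Dnajc3: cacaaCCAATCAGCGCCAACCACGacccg
Hsp90b1, distal: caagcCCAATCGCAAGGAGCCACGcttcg
Hsp90b1, proximal, in the other direction: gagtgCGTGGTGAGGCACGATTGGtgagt

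The elements end 36 bases before the listed first exon of Pdia6 and 87 bases before that of Dnajc3. These genes spanned a wide range of levels in these livers, with means of 157 ± 21.8 FPKM for Hspa5, 64.4 ± 13.4 for Pdia6 and 29.8 ± 5.70 for Dnajc3 (SD, n = 3).

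Of the 10 genes on the heat-inducible list, 8 had a value, all but Hspa1a and Hspa1b. The 8 include Hspa8, described above as the constitutive form. Their median deviations were -0.06, -0.04 and 0.01. Means ran from under 6 FPKM for Dnajb1 and Hsph1 to 152 FPKM for Hspd1, with Hspa8 apart at 339 FPKM. Heat shock factor genes were low to moderate: Hsf1 had 5.90, 5.08 and 4.31 FPKM and Hsf2 12.0, 9.70 and 10.2 FPKM. Hsbp1, a small protein that binds these factors, had 43.8, 36.9 and 34.7 FPKM. All 4 genes of that list, Hsf4 included, were above their own mean in replicate 1, where 49.6% of protein-coding genes were. For comparison, 4 immediate early genes with a value in each library had median deviations of 1.05, -1.47 and 0.42. Fos, a subunit of the transcription factor AP-1, had 10.03, 1.58 and 5.75 FPKM. Dusp1, a phosphatase of MAP kinases, had 33.6, 3.51 and 22.8 FPKM, and Nr4a1, a nuclear receptor, 25.8, 0.762 and 15.8 FPKM. These 3 were lowest in replicate 2, while the zinc finger factor Egr1 was highest there, with 18.3, 36.0 and 19.9 FPKM.

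The 8 mitochondrial chaperones had median deviations of -0.028, 0.031 and -0.00089 and summed FPKM of 442, 471 and 455. Their partners were also present: Trap1, the mitochondrial HSP90, had 58.3, 60.8 and 66.0 FPKM, and the proteases Lonp1 and Clpp had 36.5, 41.6 and 43.4 FPKM and 30.8, 25.1 and 21.4 FPKM. The 7 TRiC subunits with Cct6a had medians of -0.08, 0.08 and 0.02, and none of the 7 was above its own mean in replicate 1, where 49.6% of protein-coding genes and 38.6% of members were. In the same library 2 of 10 hepatocyte and 1 of 8 Kupffer markers were above their own mean. Among markers with a value in each library, so were 4 of 8 for sinusoidal endothelium and 3 of 7 for stellate cells. For cholangiocytes it was 5 of 5 and for muscle 0 of 2. The part of these cell types in the result was not tested. Of 19 cochaperones of HSP70 and HSP90, 17 had a value, led by Fkbp4 with 58.1, 49.8 and 57.9 FPKM, Bag1 with 47.6, 45.4 and 46.5 FPKM and St13 with 35.4, 43.6 and 42.0 FPKM. Fkbp5, a glucocorticoid-induced cochaperone, was high in replicate 2, with 5.87, 18.1 and 7.13 FPKM. None of the 10 genes on a list of chaperones known from testis had a value. Hspa1l, Dnajb3, Dnajb7 and Cct8l1 among them have 1 annotated transcript, so their level cannot be read either. Dnajb13, with the 1 internal event given above, is also among the 10, so lacking a value does not mean lacking events. For the rest, absence of expression was not tested. The list leaves out Hspa2 and Hspa4l, tied above to sperm formation and testis, which had values. Like the other lists, it was chosen with earlier results of these data known.

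**Figure D4:**
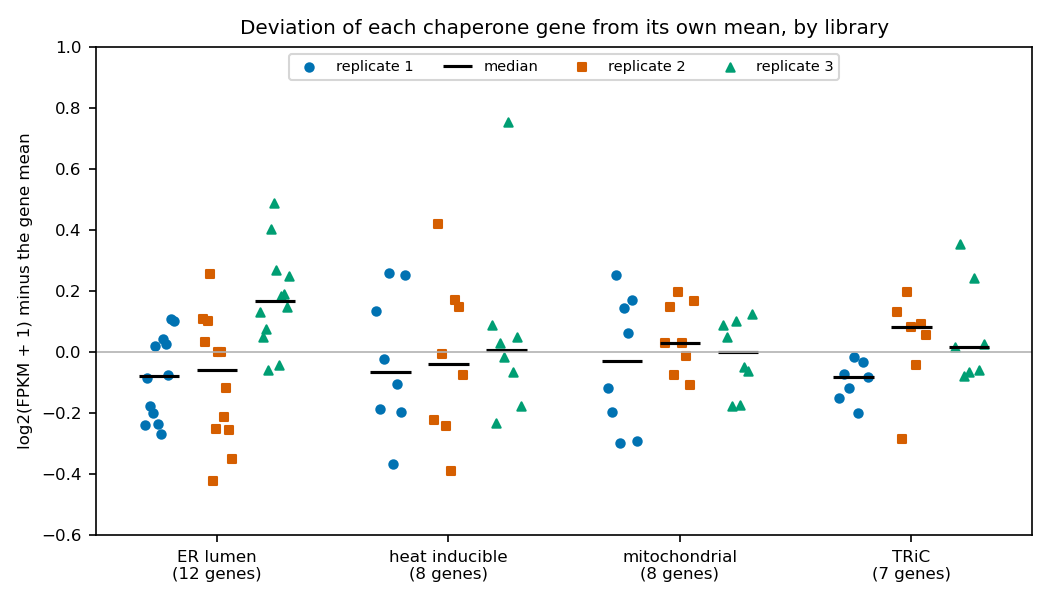
Log2(FPKM + 1) of each gene minus its mean over the 3 libraries, for the ER lumen, heat-inducible, mitochondrial and TRiC lists, with 1 point per gene and library and the median as a bar. The ER lumen genes lie higher in replicate 3 (median 0.17), and the TRiC genes lie below 0 in replicate 1.

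Transcript forms of the chaperone genes were compared as the percent of FPKM carried by each form. Internal events were listed for 45 member genes, 186 in any library, of which 133 were in all 3 libraries, 14 in 2 and 39 in 1. Of 147 forms in 40 genes, 15 forms in 7 genes met the threshold that all forms sum to at least 5 FPKM in each library, the less used form holds at least 10%, and first exons start, or last exons end, more than 100 bases apart. These were Dnaja3, Dnajb6, Dnajb12, Dnajc4, Dnajc5, Dnajc8 and Hspbp1. Dnajb2 passed on level and percent alone: its first exons chr1:75236406-75236589, with 73.7, 86.8 and 81.6%, and chr1:75236406-75236948, with 25.7, 13.0 and 17.9%, share a start.

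Dnaja3 encodes a mitochondrial J-domain protein with 2 known carboxyl ends. A 117-base exon at chr16:4705844-4705960 was included with 3.22, 3.86 and 2.93 FPKM and skipped with 19.7, 24.4 and 23.4 FPKM. Inclusion was 14.0, 13.7 and 11.1%, close together in the 3 libraries. With the exon the annotated protein has 480 amino acids and ends within it. Without it the protein has 453. The coding part is shown with its stop codon in capitals because it makes the end of the longer protein (chr16:4705844-4705947, plus strand, GENCODE M21):

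Dnaja3: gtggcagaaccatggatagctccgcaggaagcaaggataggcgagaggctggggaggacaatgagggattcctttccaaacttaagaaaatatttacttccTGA

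Dnajc5 has a pair of such exons. A 53-base exon in the leader, chr2:181521235-181521287, was included at 62.3, 64.3 and 54.9%. A 75-base exon at chr2:181548926-181549000 was included at 35.3, 30.7 and 29.3%, with 3.36, 3.37 and 3.57 FPKM. Its annotated transcript is classed as a target of nonsense-mediated decay, which removes messages with an early stop codon, and encodes 167 amino acids in place of the 198 of the main form. The stop codon, in capitals, stands near the start of the exon, of which 30 bases are shown (chr2:181548926-181548955, plus strand, GENCODE M21):

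Dnajc5: gagggcacTGAcactgtgccgagagtgttt

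The next to last exon of Dnajb12 starts at position 59896350 of chromosome 10 and had 3 ends. The short form of 98 bases held 29.3, 22.7 and 18.0%, the form of 146 bases 30.7, 21.4 and 33.4%, and the form of 152 bases 40.1, 55.9 and 48.6%. The longest form was the most used in each library, and the ranges of the shorter forms overlapped. The 2 longer forms read on into a stop codon and encode 376 amino acids, while the short form continues in the last exon and encodes 378. The added coding bases are shown with the stop codon in capitals (chr10:59896448-59896471, plus strand, GENCODE M21):

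Dnajb12: gtgcaggcctccctgcatggaTAG

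Dnajb6 was listed from a first exon at chr5:29735688-29736116, that of the 365-residue protein, with 15.2, 16.6 and 16.4 FPKM, or 62.1, 58.2 and 63.7%. An internal first exon at chr5:29765190-29765647 held 36.8, 36.0 and 31.3% and belongs to an annotated retained-intron transcript. Dnajc4 was listed from the annotated first exon at chr19:6992159-6992272 on the minus strand with 80.7, 85.0 and 43.4%, and from an upstream one at chr19:6992549-6992828 with 19.3, 15.0 and 56.6%, so replicate 3 differed from the other libraries. Dnajc8, whose protein is found with splicing factors, kept a 534-base intron, chr4:132544123-132544656, in 14.0, 12.1 and 14.3%, the same event as its 696-base exon. Hspbp1 joined its leader to the first coding exon at several acceptor sites, all ahead of the start codon. The 211-base exon held 34.6, 25.1 and 24.2% and the 295-base exon 62.6, 46.7 and 32.7%. A 298-base exon, at 2.78, 28.2 and 43.1%, missed the threshold in replicate 1.

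**Figure D5:**
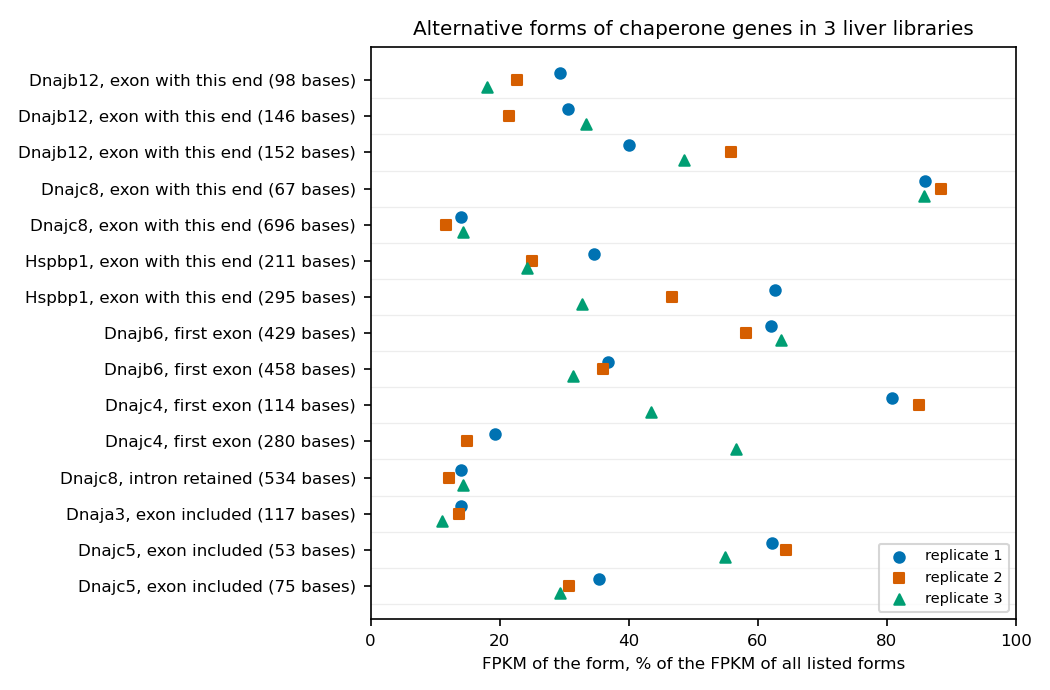
Percent of FPKM held by each of the 15 named forms, with 1 marker per replicate. The Dnaja3 exon stays between 11.1 and 14.0%, while the Dnajc4 first exons change order in replicate 3.

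Forms of Hsph1 and a further form of Dnajc8, all below the threshold, were picked after their values were seen, for their gaps between libraries. Hsph1 has a 132-base coding exon, chr5:149623465-149623596 on the minus strand, that adds 44 amino acids to give 858 in place of 814 and keeps the reading frame. It was included with 4.76, 2.63 and 4.62 FPKM, and skipped with 5.0 FPKM in replicate 2 alone, the skipping event not being listed in replicates 1 and 3. As listed, skipping held more FPKM than inclusion in replicate 2. The skipping event rests on 1 library, so whether the short form itself differed between libraries cannot be told from these values. The exon is shown whole (GENCODE M21, strand of the gene):

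Hsph1: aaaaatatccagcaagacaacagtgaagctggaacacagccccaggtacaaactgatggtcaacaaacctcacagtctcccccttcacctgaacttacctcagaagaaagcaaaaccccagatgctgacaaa

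Dnajc8 had a downstream first exon at chr4:132551295-132551610 with 4.86, 47.2 and 5.81% of its first exons, high in replicate 2. Its level was 12.2, 14.6 and 12.1 FPKM, and its main first exon had 11.6, 7.73 and 11.4 FPKM.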

How the data were processed

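RNA was sequenced from 3 liver samples. Per the labels' protocols, RNA with an integrity number above 6.5 was used; whether poly(A) RNA was isolated or ribosomal RNA removed is left unstated. Tools in the submitters' processing notes are DESeq2, HTSeq 0.6.1, HISAT2 2.0.1 and cutadapt 1.9.1, with the build mm9, and the program behind the event tables not given in the sources used here. Each event has an FPKM from the authors, per the file headers; events at 0 are not listed (lowest 1e-06). After removal of 1519, 1440 and 1485 identical rows, 82.0, 82.2 and 82.7% of first exons matched GENCODE M21 (GRCm38) exactly, and at most 0.0056% after a shift of 1000 bases, so positions were read as GRCm38.

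Ends were given to genes by exact position, then splice site, then identifier on the gene's strand. Gene-level FPKM is the largest of summed first exons, summed last exons and the largest internal event of a locus with 1 gene. The calculation was checked on simulated data for 400 genes (100% of values within 1%). Those data held every first exon and no internal events. The check thus cannot speak to genes whose events disagree, such as Dnaja1 in replicate 3. Logs are log2(FPKM + 1). Python 3.11.15 and pandas 2.3.3 were used. Members, lists and pairs were chosen with earlier results of these data known. Named genes were the 3 highest of each family, members averaging 5 FPKM or more with a 2-fold range, list and pair genes, and forms past 5 FPKM and 10%. No protein sequences were used, so the protein motifs planned were not searched.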

Additional observations from a re-analysis of the deposited data

How the results depend on the processing

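No paired analysis was possible because all 3 libraries belong to 1 group. Counts of members listed and of members at 1 FPKM or more stayed within 1.5 times under the alternatives run. With summed last exons alone the share of summed FPKM was 0.504%, the median level 2.98 and the members with a 2-fold range 3; the heat-inducible deviations were -0.011, -0.0010 and -0.042, the mitochondrial ones 0.063 and -0.050 in replicates 1 and 3, and the TRiC one -0.0041 in replicate 2. That setting also turned 4 pairs: Hspa5 over Hspa8 became 6.85, Hspa9 over Hspa8 6.82, Hsp90ab1 over Hsp90aa1 -4.68 and Dnaja1 over Dnaja2 -0.13. It also changed the sign of 2 pairs whose order differed between libraries: Hsp90b1 over Hsp90ab1 became 7.63 and Dnajb11 over Dnajb9 -3.52. Hsp90ab1 had 0.0642 FPKM on last exons; for the other turned pairs the cause was not tested. First exons alone gave a share of 0.604%. Placement by identifier alone gave -0.11 for the heat-inducible genes in replicate 1. The median level was 3.53 with a pseudocount of 0.1 and 4.10 over members at 1 FPKM or more, and a minimum of 5 FPKM left 2 members with a 2-fold range. Ends placed by identifier on either strand, chosen after seeing the data, changed no result beyond its spread. Leaving out each replicate in turn gave a median level of 3.63 to 3.77, 1 to 4 members with a 2-fold range, heat-inducible deviations of 0.00071 to 0.0012 in replicate 1, -0.0012 to 0.017 in replicate 2 and -0.017 to -0.00071 in replicate 3, and mitochondrial deviations of -0.035 to 0.024 in replicate 3. Depth is unknown, so levels near the lowest listed FPKM carry no stated precision.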
